A study of Taeniopygia guttata with 22 samples.

Results

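The genes described here are those of the oligodendrocyte lineage and of myelin, followed in the robust nucleus of the arcopallium (RA) of juvenile zebra finches. They were chosen by symbol as 40 genes in 6 roles, from precursor markers to structural myelin proteins, and each was looked up in the count table by its NCBI gene ID. Of the 40 genes, 33 had an entry, out of 21786 genes with an ID, and all 33 passed the filter on low counts that left 16004 genes to test. OLIG1, OLIG2, MOBP, MOG, PMP2, MAG and SIRT2 could not be matched to an entry and were not analysed here. By the reference table, LPAR1 lies on the Z chromosome, of which males carry a pair and females 1 copy, and the other 32 genes lie on autosomes.

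Oligodendrocytes wrap axons in myelin, the membrane stack that insulates them and speeds conduction. They arise from precursor cells that carry the growth factor receptor PDGFRA. These cells pass through a premyelinating stage, marked in mammals by GPR17, BCAS1 and ENPP6, before the factors SOX10 and MYRF switch on the genes of the myelin sheath. RA is the forebrain nucleus whose projection neurons drive the brainstem vocal motor neurons for song, and it grows in males and regresses in females during the juvenile weeks covered here.

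RA was laser-captured from stained brain sections, and 22 libraries were sequenced from 5 males and 7 females at 50 days after hatching and from 5 males and 5 females at 20 days. No strain, treatment or genotype is given in the labels; the birds were taken soon after lights-on and had not been seen to sing. The brain ids of female 50-day replicates 5 and 6 share a number, so these libraries may come from 1 bird. Total counts were 49.1 to 65.0 M (M, 1e6 counts) in 9 libraries, here called deep, and 16.2 to 22.3 M in the other 13. The deep set held 3 of 5 male and 1 of 7 female libraries at 50 days, and 0 of 5 male and 5 of 5 female libraries at 20 days. Levels below are counts per 1e6 counts (CPM) after TMM scaling, as mean ± SD or library by library in replicate order. For the 7 female 50-day libraries the lowest, median and highest level stand in place of the library values. Neuron markers were measured in every group, 12 of 12 in the table, with a summed level of 8581 to 10874 CPM in 50-day males, 8950.4 to 12044 in 50-day females, 9042 to 10601 in 20-day males and 9375 to 11309 in 20-day females.

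The genes of myelinating oligodendrocytes were higher at 50 than at 20 days in RA of both sexes, while the precursor markers that changed were lower. A gene was said to change when its Benjamini-Hochberg adjusted p in edgeR's quasi-likelihood test was under 0.05 over all 16004 genes. In males 18 of the 33 genes rose and 5 fell, where 26.7% of all genes tested were called, 12.5% higher and 14.2% lower. In females 15 rose and 2 fell, where 14.9% of all genes were called, 6.80% higher and 8.05% lower. The median log2 change of the 33 genes was 1.20 in males and 0.73 in females, beside -0.014 and 0.013 over all genes. All 15 genes that rose in females also rose in males, which is 100% of the female list and 83.3% of the male list. TSPAN2, ASPA and TF rose in males and did not pass the test in females. In 17 genes every 50-day male library lay above every 20-day male library, where 8.41% of all genes did so, and in 5 genes every one lay below, where 9.73% did. The corresponding numbers in females were 13 above, where 3.12% of all genes did so, and 1 below, where 4.34% did. In a bulk sample, more cells of a type and more RNA per cell cannot be told apart.

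**Figure D1:**
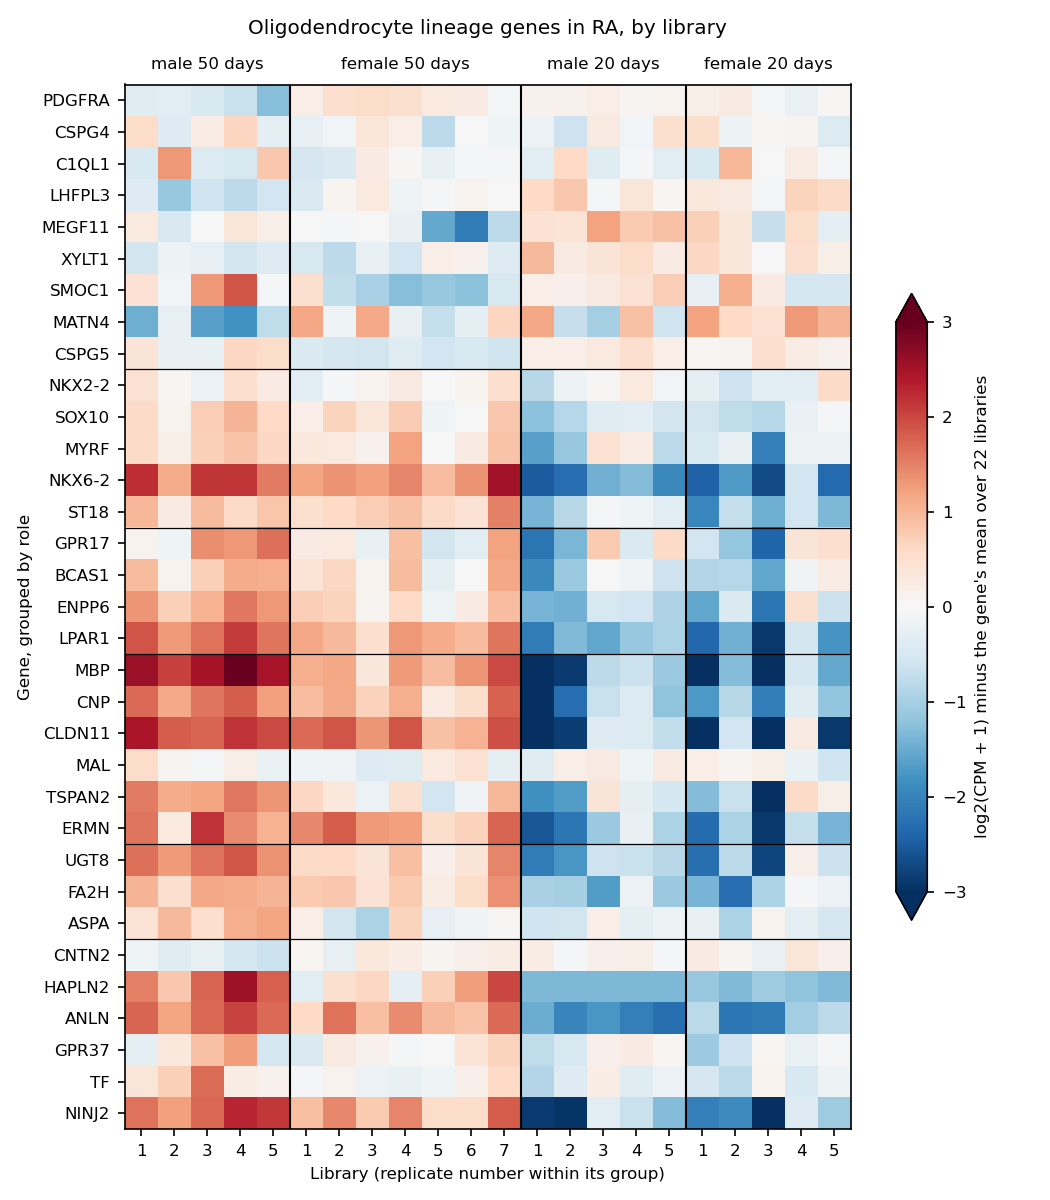
Level of each of the 33 genes (down the page, grouped by role) in each of the 22 libraries (across, by group and replicate number), as log2(CPM + 1) minus the gene's mean over the 22 libraries. The 50-day libraries of both sexes are red over most of the lower 24 genes, and the precursor markers PDGFRA, LHFPL3 and XYLT1 are lower in 50-day than in 20-day males.

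The structural proteins of the myelin sheath had the largest median change with age among the 6 roles in both sexes. Of the 6 with an entry, 5 rose in males, where 12.5% of all genes rose, and 4 in females, where 6.80% did. Their median log2 change was 2.86 in males and 2.50 in females. MBP encodes myelin basic protein, which compacts the sheath and supplied 43.5% to 87.7% of the counts of these 6 genes in a library, with no correction for transcript length. MBP had 7105, 4835, 6655, 9118 and 6478 CPM in the 50-day males, and 1476 at the lowest, 2641 at the median and 4619 at the highest in the 50-day females. At 20 days MBP had 77.2, 160.2, 682, 756 and 541 CPM in males and 109, 475, 49.3, 816 and 406 in females. Every 50-day library lay above every 20-day library of its sex, and the 20-day levels spanned a wide range in each sex. MBP rose 15.4-fold in males (log2 3.95, SE 0.63, adjusted p = 5.61e-05) and 7.42-fold in females (log2 2.89, SE 0.58, adjusted p = 0.00166).

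CNP, the enzyme of the myelin cytoplasm that keeps its channels open, followed the same course. CNP had 716, 484, 674, 772 and 519.6 CPM in the 50-day males, and 269 at the lowest, 417 at the median and 752 at the highest in the 50-day females. At 20 days CNP had 23.97, 44.6, 137, 165 and 94.4 CPM in males and 65.4, 123, 51.1, 172 and 96.8 in females. The 50-day sexes overlapped, and both stood above all 20-day libraries. CNP rose 6.80-fold in males (log2 2.77, SE 0.41, adjusted p = 2.81e-05) and 4.29-fold in females (log2 2.10, SE 0.39, adjusted p = 0.00075). CLDN11 forms the tight junctions between myelin layers. CLDN11 had 171, 109.7, 106, 141 and 123 CPM in the 50-day males, and 56.8 at the lowest, 101 at the median and 119.7 at the highest in the 50-day females. At 20 days CLDN11 had 0.890, 3.36, 22.996, 22.8 and 17.9 CPM in males and 0.818, 20.1, 0, 36.9 and 3.22 in females. At 20 days 1 male and 2 female libraries held under 1 CPM, and female replicate 3 had 0 counts. CLDN11 rose 9.55-fold in males (log2 3.26, SE 0.90, adjusted p = 0.00898) and 7.63-fold in females (log2 2.93, SE 0.85, adjusted p = 0.0222). The female call was lost without female 20-day replicate 5 (adjusted p = 0.0555).

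ERMN, a cytoskeletal protein of the mature sheath, averaged 23.4 ± 10.98 CPM in 50-day males and 3.02 ± 2.49 in 20-day males, and rose 7.71-fold (log2 2.95, SE 0.62, adjusted p = 0.0011). In females ERMN averaged 21.4 ± 7.12 CPM at 50 days and 2.34 ± 1.84 at 20 days, a 9.14-fold rise (log2 3.19, SE 0.60, adjusted p = 0.00097). TSPAN2, a tetraspanin of oligodendrocyte membranes, averaged 297 ± 43.6 CPM in 50-day males and 78.1 ± 49.04 in 20-day males, and rose 3.80-fold (log2 1.93, SE 0.49, adjusted p = 0.00513). In females TSPAN2 averaged 142 ± 52.7 CPM at 50 days and 85.9 ± 63.98 at 20 days, a difference that did not pass the test (log2 0.73, 95% interval -0.20 to 1.66, adjusted p = 0.299). MAL, a membrane-sorting protein of myelin, was near 1 CPM in all 4 groups, from 0.847 in 50-day females to 1.09 in 50-day males. Its age differences were small beside their intervals (log2 0.14, 95% interval -0.81 to 1.09, adjusted p = 0.858 in males and log2 0.013, 95% interval -0.86 to 0.88, adjusted p = 0.99 in females).

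**Figure D2:**
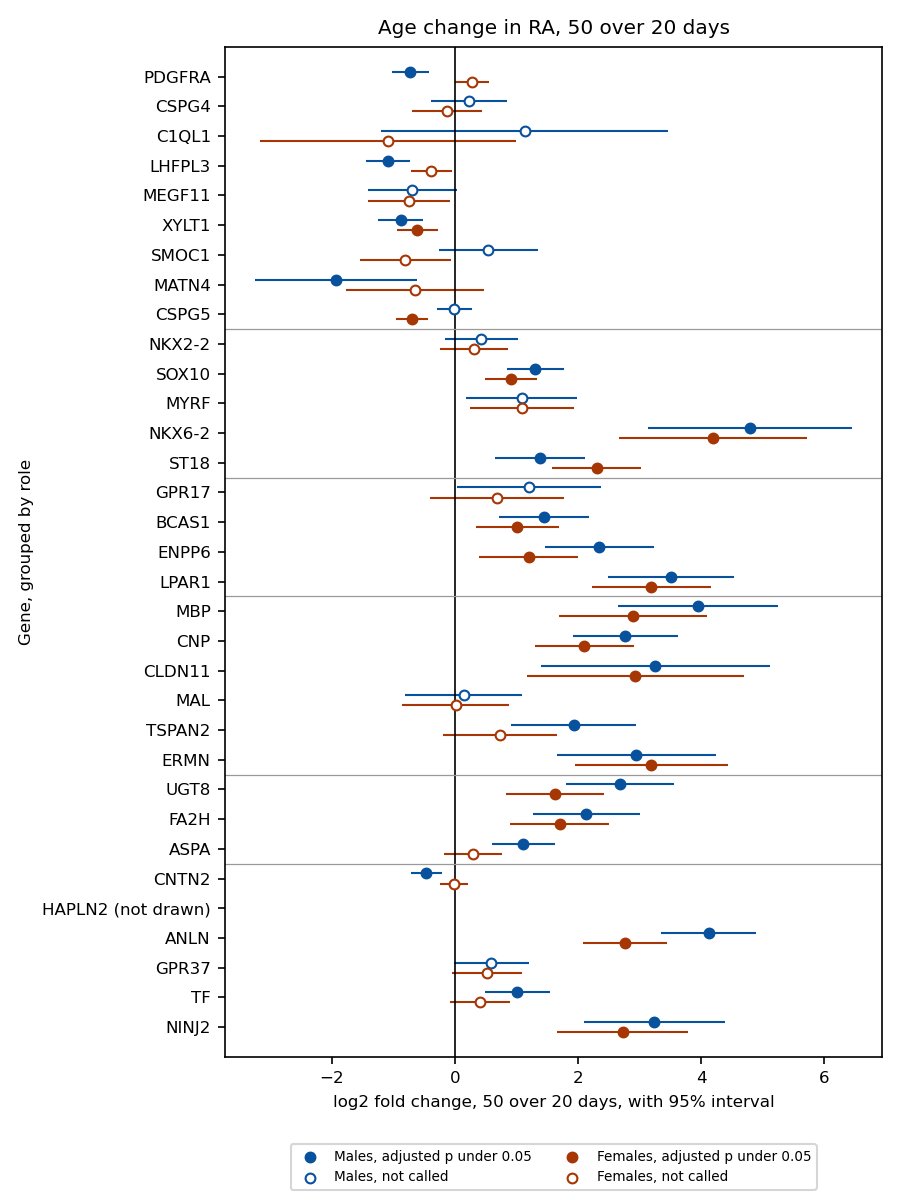
Log2 fold change of 50 over 20 days (x axis) for each gene (down the page, by role) in males and in females, with 95% intervals. Filled points passed an adjusted p of 0.05; most structural, lipid and late genes lie right of 0 in both sexes, and 6 of 9 precursor markers in males and 8 of 9 in females lie left of it. HAPLN2 is not drawn because the 20-day males had no count of it.

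Enzymes that make or supply myelin lipids rose with the structural genes, 3 of 3 in males and 2 of 3 in females. Of all genes, 12.5% rose in males and 6.80% in females. UGT8 makes galactosylceramide, the characteristic lipid of myelin. UGT8 had 252, 196, 251, 295 and 205 CPM in the 50-day males, and 89.4 at the lowest, 119 at the median and 222 at the highest in the 50-day females. At 20 days UGT8 had 17.8, 23.2, 51.6, 49.7 and 44.7 CPM in males and 15.9, 45.8, 10.98, 88.5 and 50.5 in females. At 50 days every library of either sex was above all 20-day libraries of its sex. UGT8 rose 6.41-fold in males (log2 2.68, SE 0.42, adjusted p = 5.3e-05) and 3.08-fold in females (log2 1.62, SE 0.39, adjusted p = 0.00642). FA2H adds the hydroxyl group to the fatty acids of those lipids. FA2H had 17.5, 11.99, 19.7, 18.8 and 17.5 CPM in the 50-day males, and 9.76 at the lowest, 14.8 at the median and 22.8 at the highest in the 50-day females. At 20 days FA2H had 3.70, 3.61, 1.87, 7.07 and 3.23 CPM in males and 2.47, 0.884, 3.77, 8.02 and 7.07 in females. The 50-day and 20-day libraries did not overlap in either sex. FA2H rose 4.39-fold in males (log2 2.13, SE 0.42, adjusted p = 0.000516) and 3.25-fold in females (log2 1.70, SE 0.39, adjusted p = 0.0046). ASPA splits N-acetylaspartate and supplies acetate for lipid synthesis. ASPA had 96.4, 143, 102, 155 and 165 CPM in the 50-day males, and 37.3 at the lowest, 67.8 at the median and 116 at the highest in the 50-day females. At 20 days ASPA had 47.6, 48.99, 83.7, 60.2 and 65.6 CPM in males and 61.97, 37.2, 78.1, 58.997 and 50.7 in females. The ages did not overlap in males and did in females. ASPA rose 2.16-fold in males (log2 1.11, SE 0.25, adjusted p = 0.00166), and its difference in females was 0.29 on the log2 scale (adjusted p = 0.443).

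Of the 6 genes of axon contact, cytoskeleton and other functions of mature oligodendrocytes, 4 rose and 1 fell in males and 3 rose in females. Over all genes 12.5% rose and 14.2% fell in males, and 6.80% rose in females. ANLN, an actin-binding septin partner found in central myelin, had the smallest p of the 33 genes in both sexes. ANLN had 36.2, 24.2, 35.7, 44.2 and 34.9 CPM in the 50-day males, and 15.6 at the lowest, 20.6 at the median and 35.03 at the highest in the 50-day females. At 20 days ANLN had 2.95, 1.81, 2.29, 1.65 and 1.30 CPM in males and 5.28, 1.44, 1.52, 4.37 and 5.36 in females. The lowest 50-day library was 15.6 CPM and the highest 20-day library 5.36. ANLN rose 17.4-fold in males (log2 4.12, SE 0.37, adjusted p = 5.13e-08) and 6.78-fold in females (log2 2.76, SE 0.33, adjusted p = 8.98e-06). HAPLN2 is a link protein of the matrix at nodes of Ranvier. HAPLN2 had 6.28, 3.48, 7.57, 13.98 and 7.87 CPM in the 50-day males, and 1.01 at the lowest, 2.91 at the median and 9.20 at the highest in the 50-day females. At 20 days HAPLN2 had 0, 0, 0, 0 and 0 CPM in males and 0.157, 0.0206, 0.217, 0.108 and 0.0154 in females. The 5 male 20-day libraries held no count of it, while the deeper female 20-day libraries held 1 to 11 counts each. With a floor of 3 counts over the 20-day males, or 0.0313 CPM, the mean HAPLN2 level of 50-day males was 250.5 times the floor. That value leaves out the spread between libraries and is no strict lower bound. In females HAPLN2 rose 33.5-fold (log2 5.07, SE 0.70, adjusted p = 0.000108).

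NINJ2, an adhesion protein of glia, averaged 74.6 ± 21.6 CPM in 50-day males and 7.87 ± 6.26 in 20-day males, and rose 9.44-fold (log2 3.24, SE 0.55, adjusted p = 0.000118). Female NINJ2 averaged 45.8 ± 16.8 CPM at 50 days and 6.92 ± 5.29 at 20 days, a 6.61-fold rise (log2 2.72, SE 0.52, adjusted p = 0.000985). TF, the iron carrier transferrin that oligodendrocytes make, averaged 1491 ± 777 CPM in 50-day males and 739.8 ± 204 in 20-day males, and rose 2.02-fold (log2 1.01, SE 0.25, adjusted p = 0.00444). In females TF averaged 937 ± 206 CPM at 50 days and 709 ± 173 at 20 days and did not pass the test (log2 0.40, 95% interval -0.083 to 0.89, adjusted p = 0.27). GPR37, a receptor of maturing oligodendrocytes, did not pass in either sex (log2 0.59, 95% interval -0.023 to 1.20, adjusted p = 0.152 in males, and log2 0.51, 95% interval -0.058 to 1.08, adjusted p = 0.228 in females). CNTN2, an adhesion protein of the juxtaparanode that neurons also make, moved the other way. CNTN2 had 56.7, 48.4, 53.7, 42.9 and 39.4 CPM in the 50-day males, and 52.4 at the lowest, 69.8 at the median and 78.3 at the highest in the 50-day females. At 20 days CNTN2 had 73.3, 60.3, 69.9, 70.5 and 59.7 CPM in males and 74.1, 66.7, 54.5, 80.9 and 69.3 in females. The 50-day males were below every 20-day male, and the ages of females overlapped. CNTN2 fell to 0.722-fold in males (log2 -0.47, SE 0.12, adjusted p = 0.00528) and did not pass the test in females (log2 -0.015, 95% interval -0.24 to 0.21, adjusted p = 0.951).

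Of the 5 lineage transcription factors, 3 rose in both sexes, where 12.5% of all genes rose in males and 6.80% in females. SOX10 drives oligodendrocyte identity at every stage. SOX10 had 44.9, 32.2, 50.3, 61.01 and 45.9 CPM in the 50-day males, and 26.999 at the lowest, 38.9 at the median and 52.9 at the highest in the 50-day females. At 20 days SOX10 had 12.2, 16.1, 23.04, 23.6 and 20.1 CPM in males and 20.03, 17.2, 15.96, 25.7 and 28.4 in females. In males the ages did not overlap, and in females the ranges overlapped. SOX10 rose 2.47-fold in males (log2 1.30, SE 0.22, adjusted p = 0.000119) and 1.88-fold in females (log2 0.91, SE 0.21, adjusted p = 0.00434). NKX6-2, a homeodomain factor of maturing oligodendrocytes, was low at 20 days. NKX6-2 had 28.95, 12.9, 27.2, 27.4 and 18.01 CPM in the 50-day males, and 11.2 at the lowest, 15.2 at the median and 35.9 at the highest in the 50-day females. At 20 days NKX6-2 had 0.140, 0.311, 1.35, 1.60 and 0.679 CPM in males and 0.204, 0.987, 0, 3.29 and 0.277 in females. No 50-day library was below 11.2 CPM, and no 20-day library was above 3.29. NKX6-2 rose 27.7-fold in males (log2 4.79, SE 0.80, adjusted p = 0.0001) and 18.3-fold in females (log2 4.19, SE 0.74, adjusted p = 0.000518).

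ST18, a zinc finger factor of newly myelinating cells, rose as well. ST18 had 13.9, 7.79, 13.4, 10.04 and 12.3 CPM in the 50-day males, and 9.07 at the lowest, 10.3 at the median and 20.3 at the highest in the 50-day females. At 20 days ST18 had 1.83, 3.17, 6.30, 5.78 and 4.92 CPM in males and 0.912, 3.54, 1.72, 3.99 and 1.96 in females. Each sex had every 50-day library above its 20-day libraries. ST18 rose 2.61-fold in males (log2 1.39, SE 0.35, adjusted p = 0.00514) and 4.92-fold in females (log2 2.30, SE 0.35, adjusted p = 0.000118). MYRF is the factor that directly activates myelin genes. MYRF had 11.8, 8.74, 13.2, 14.6 and 12.2 CPM in the 50-day males, and 7.59 at the lowest, 9.52 at the median and 19.03 at the highest in the 50-day females. At 20 days MYRF had 1.78, 2.93, 10.8, 9.03 and 3.96 CPM in males and 5.33, 6.35, 1.09, 6.81 and 6.74 in females. Female ages did not overlap, and in males the 20-day replicates 3 and 4 reached into the 50-day range. MYRF was 2.12-fold higher in males (log2 1.08, SE 0.43, adjusted p = 0.0696) and 2.12-fold higher in females (log2 1.09, SE 0.41, adjusted p = 0.0749), and neither difference passed the test. With DESeq2 MYRF passed in both sexes (adjusted p = 0.0334 in males and 0.0318 in females), and with limma voom it passed in males (0.0160). The male difference also passed without male 20-day replicate 3 (adjusted p = 0.0213), male 20-day replicate 4 (0.0440) or female 20-day replicate 3 (0.0292). NKX2-2, a factor of precursors and differentiating cells, averaged 5.37 ± 1.22 CPM in 50-day males, 4.83 ± 1.06 in 50-day females, 4.02 ± 1.30 in 20-day males and 3.91 ± 1.79 in 20-day females. It did not pass in males (log2 0.42, 95% interval -0.17 to 1.02, adjusted p = 0.307) or in females (log2 0.30, 95% interval -0.25 to 0.85, adjusted p = 0.495).

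Among the 4 genes of premyelinating and newly formed oligodendrocytes, 3 rose in both sexes. The shares over all genes were 12.5% in males and 6.80% in females. LPAR1, a lysophosphatidic acid receptor, changed the most of them. LPAR1 had 33.2, 21.4, 27.6, 38.9 and 27.5 CPM in the 50-day males, and 12.2 at the lowest, 19.2 at the median and 27.3 at the highest in the 50-day females. At 20 days LPAR1 had 1.17, 2.74, 2.15, 3.20 and 3.79 CPM in males and 0.818, 2.43, 0.257, 5.31 and 1.72 in females. All 50-day libraries were above 12 CPM and all 20-day libraries below 6. LPAR1 rose 11.4-fold in males (log2 3.52, SE 0.49, adjusted p = 1.37e-05) and 9.12-fold in females (log2 3.19, SE 0.47, adjusted p = 8.57e-05). LPAR1, the Z-linked gene of the set, did not pass the test between the sexes at 50 days (log2 0.63, 95% interval -0.20 to 1.46, adjusted p = 0.244) or at 20 days (log2 0.30, 95% interval -0.67 to 1.27, adjusted p = 0.922).

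BCAS1 marks oligodendrocytes that are about to myelinate. BCAS1 had 309, 173, 263, 349 and 346 CPM in the 50-day males, and 133 at the lowest, 212 at the median and 360.3 at the highest in the 50-day females. At 20 days BCAS1 had 41.6, 73.5, 161, 149 and 104 CPM in males and 87.4, 87.8, 53.6, 149.9 and 187 in females. Male ages did not overlap and female ages did. BCAS1 rose 2.72-fold in males (log2 1.44, SE 0.35, adjusted p = 0.00354) and 2.02-fold in females (log2 1.01, SE 0.33, adjusted p = 0.0399). ENPP6, a choline phosphodiesterase of newly formed oligodendrocytes, gave the same picture. ENPP6 had 25.1, 16.1, 20.5, 30.01 and 24.9 CPM in the 50-day males, and 8.49 at the lowest, 14.9 at the median and 18.96 at the highest in the 50-day females. At 20 days ENPP6 had 2.997, 2.86, 6.53, 5.98 and 4.53 CPM in males and 2.52, 6.70, 1.32, 13.7 and 5.68 in females. The female 20-day replicate 4 lay within the 50-day female range. ENPP6 rose 5.09-fold in males (log2 2.35, SE 0.43, adjusted p = 0.000243) and 2.29-fold in females (log2 1.20, SE 0.39, adjusted p = 0.0396). Female BCAS1 lost its call without any 1 of 50-day replicates 2, 4 and 7 and 20-day replicates 1, 2 and 3 (adjusted p = 0.0590 to 0.103). Female ENPP6 lost its call without any 1 of 50-day replicates 1, 2, 4 and 7 and 20-day replicates 1, 2, 3 and 5 (0.0561 to 0.105). BCAS1 also lost it with limma voom (0.0605) and ENPP6 in a fit of the female libraries alone (0.0900).

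GPR17, a receptor that holds cells at the premyelinating stage, did not pass the test. GPR17 had 24.9, 21.3, 63.1, 58.7 and 74.5 CPM in the 50-day males, and 15.5 at the lowest, 27.5 at the median and 54.6 at the highest in the 50-day females. At 20 days GPR17 had 4.31, 8.34, 40.7, 16.9 and 35.2 CPM in males and 15.2, 9.76, 3.60, 30.5 and 33.5 in females. Levels within a group differed several-fold between libraries, and the ages overlapped in both sexes. The GPR17 difference was 2.30-fold in males (log2 1.20, 95% interval 0.025 to 2.38, adjusted p = 0.128) and 1.61-fold in females (log2 0.68, 95% interval -0.41 to 1.77, adjusted p = 0.426).

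No precursor marker rose with age, where 12.5% of all genes rose in males and 6.80% in females. For 9 genes a count of 0 is close to these shares. Of the 9, 4 fell in males, where 14.2% of all genes fell, and 2 in females, where 8.05% did. Their median log2 change was -0.69 in males and -0.65 in females. PDGFRA is the receptor through which PDGF keeps precursors dividing. PDGFRA had 41.04, 41.5, 38.2, 32.96 and 21.3 CPM in the 50-day males, and 51.6 at the lowest, 64.7 at the median and 77.7 at the highest in the 50-day females. At 20 days PDGFRA had 58.4, 58.01, 60.6, 56.2 and 56.9 CPM in males and 59.8, 63.6, 51.8, 45.6 and 54.1 in females. The 50-day males lay below all other libraries, and the other 3 groups overlapped each other. PDGFRA fell to 0.602-fold in males (log2 -0.73, SE 0.15, adjusted p = 0.000585) and did not pass the test in females (log2 0.28, 95% interval 0.004 to 0.56, adjusted p = 0.166). The interaction, the age change of males less that of females, was -1.01 on the log2 scale (SE 0.20, adjusted p = 0.00185). With a term for the depth set, that difference was -0.68 and did not pass (adjusted p = 0.34).

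LHFPL3, a tetraspan protein enriched in precursors, also fell in males, while its female estimate had the opposite sign to that of PDGFRA. LHFPL3 had 32.02, 18.9, 27.6, 24.2 and 28.03 CPM in the 50-day males, and 31.2 at the lowest, 43.1 at the median and 52.6 at the highest in the 50-day females. At 20 days LHFPL3 had 64.4, 74.8, 41.001, 54.6 and 44.03 CPM in males and 53.5, 51.2, 41.3, 67.9 and 63.9 in females. In males the ages did not overlap, and the 50-day females overlapped every other group. LHFPL3 fell to 0.470-fold in males (log2 -1.09, SE 0.17, adjusted p = 6.24e-05) and was 0.765-fold in females (log2 -0.39, 95% interval -0.71 to -0.058, adjusted p = 0.105). XYLT1, which starts the sugar chains of proteoglycans, averaged 124 ± 15.3 CPM in 50-day males and 228 ± 51.6 in 20-day males, and fell to 0.542-fold (log2 -0.88, SE 0.18, adjusted p = 0.000597). Female XYLT1 averaged 133 ± 34.6 CPM at 50 days and 204 ± 35.4 at 20 days, a fall to 0.653-fold (log2 -0.61, SE 0.16, adjusted p = 0.0117). It was the gene that fell in both sexes, 1 of the 5 male and 1 of the 2 female genes that fell.

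CSPG5, neuroglycan C, is a membrane proteoglycan of precursors and of neurons. CSPG5 had 368, 239.7, 239.7, 428 and 410.0 CPM in the 50-day males, and 185 at the lowest, 198 at the median and 218 at the highest in the 50-day females. At 20 days CSPG5 had 319, 321, 341, 396 and 321 CPM in males and 290.5, 294, 394, 328 and 304 in females. The 50-day females stood below every other library. Male 50-day replicates 2 and 3, the shallow libraries of their group, had 239.7 CPM each, while the 3 deep ones had 368 to 428. CSPG5 fell to 0.616-fold in females (log2 -0.70, SE 0.12, adjusted p = 0.000578) and did not pass in males (log2 -0.010, 95% interval -0.29 to 0.27, adjusted p = 0.968). Its interaction was 0.69 (SE 0.18, adjusted p = 0.0164). With a term for the depth set, that value was -0.036 (adjusted p = 0.97), and in shallow libraries alone CSPG5 fell in males (log2 -0.48, adjusted p = 0.0146).

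CSPG4 is the NG2 proteoglycan of precursors. CSPG4 had 7.40, 3.42, 5.69, 7.94 and 3.81 CPM in the 50-day males, and 2.33 at the lowest, 4.40 at the median and 6.37 at the highest in the 50-day females. At 20 days CSPG4 had 4.12, 2.74, 5.92, 4.44 and 7.02 CPM in males and 7.25, 4.19, 4.88, 5.09 and 3.31 in females. The 4 groups overlapped throughout. Its age differences did not pass the test in males (log2 0.23, 95% interval -0.40 to 0.85, adjusted p = 0.638) or in females (log2 -0.13, 95% interval -0.70 to 0.44, adjusted p = 0.807). SMOC1, a secreted matricellular protein, varied more between libraries. SMOC1 had 100.3, 70.01, 183, 275 and 70.6 CPM in the 50-day males, and 29.7 at the lowest, 37.1 at the median and 103 at the highest in the 50-day females. At 20 days SMOC1 had 84.9, 82.5, 88.7, 102 and 123 CPM in males and 61.7, 159, 88.3, 51.2 and 51.4 in females. The 50-day males reached from 70.01 to 275 CPM, across the range of the 20-day males. No age difference of SMOC1 passed in males (log2 0.54, 95% interval -0.26 to 1.34, adjusted p = 0.34) or in females (log2 -0.81, 95% interval -1.55 to -0.074, adjusted p = 0.131). Without female 50-day replicate 1, which had 103 CPM, SMOC1 passed as lower at 50 days in females (adjusted p = 0.0243).

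The other 3 precursor markers were low or variable. MATN4, a matrilin, averaged 1.13 ± 1.05 CPM in 50-day males, 4.85 ± 3.03 in 50-day females, 4.21 ± 3.60 in 20-day males and 7.60 ± 2.10 in 20-day females. MATN4 fell to 0.261-fold in males (log2 -1.94, SE 0.63, adjusted p = 0.026) and did not pass in females (log2 -0.65, 95% interval -1.78 to 0.48, adjusted p = 0.472). The male call was lost without any 1 of 50-day replicates 1, 3 and 4 and 20-day replicates 1 and 4 (adjusted p = 0.0639 to 0.108), with limma voom (0.0537), in a fit of the male libraries alone (0.0779), with a term for the depth set (0.218) and in shallow libraries alone (0.411). MEGF11, a receptor of the EGF-repeat family, averaged 25.4 ± 5.41, 16.5 ± 7.98, 41.1 ± 9.75 and 27.7 ± 10.7 CPM in those groups and did not pass in males (log2 -0.69, 95% interval -1.41 to 0.028, adjusted p = 0.153) or females (log2 -0.75, 95% interval -1.41 to -0.088, adjusted p = 0.119). C1QL1, a complement-like secreted protein, stayed under 3 CPM in every library, and its intervals spanned several log2 units (log2 1.13, 95% interval -1.21 to 3.47, adjusted p = 0.512 in males and log2 -1.10, 95% interval -3.18 to 0.98, adjusted p = 0.517 in females).

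The age calls differed in how they held across the depth sets. The 50-day females were mostly shallow libraries and the 20-day females all deep. Each 20-day group lay wholly in a single depth set, so a term for the depth set was estimated from the 50-day libraries alone. There the deep set held 3 of 5 male and 1 of 7 female libraries. In females the term separates depth from age only if depth acts the same at 20 as at 50 days. These libraries cannot show whether it does. With a term for the depth set 9 of the 17 female calls were left. XYLT1, CSPG5, SOX10, BCAS1, ENPP6, CLDN11, UGT8 and FA2H were the genes that lost their call, at adjusted p of 0.070 to 0.294. Of these, CSPG5 had a smaller change with the term, -0.29 on the log2 scale beside -0.70 without it. The other 7 changed little in size, with -0.58 for XYLT1, 0.90 for SOX10, 1.16 for BCAS1, 1.38 for ENPP6, 2.96 for CLDN11, 1.58 for UGT8 and 1.71 for FA2H, beside -0.61, 0.91, 1.01, 1.20, 2.93, 1.62 and 1.70 without the term. Among males, in the shallow libraries alone (2 at 50 days and 5 at 20 days), 18 genes were called, 17 of them among the 23 of all libraries. XYLT1, MATN4, ST18, BCAS1, ASPA and CNTN2 were the genes that lost their male call there, at adjusted p of 0.0597 to 0.411. Their log2 changes in the shallow males were -0.70 for XYLT1, -1.40 for MATN4, 1.29 for ST18, 1.06 for BCAS1, 1.02 for ASPA and -0.37 for CNTN2, beside -0.88, -1.94, 1.39, 1.44, 1.11 and -0.47 in all libraries.

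Between the sexes, 0 of the 33 genes passed the test at 20 days, where 2.11% of all genes were called, 1.92% higher and 0.181% lower in males. At an unadjusted p under 0.05 in the same test there were 3 of the 33 genes, a share close to the 1585 of all 16004 genes. DESeq2 and limma voom called 0 of the 33 as well. The median log2 difference, male over female, was 0.062 over the 33 genes and -0.0083 over all genes. The smallest adjusted p was 0.227, for HAPLN2. It was also the gene whose 20-day groups did not overlap, with males lower, where 1.01% of all genes did so, and no gene had 20-day males higher throughout, where 2.60% of all genes did. The 20-day male libraries are shallow and the female ones deep, so at this age sex and depth cannot be told apart. The 20-day intervals were wide for the myelin genes. They reached -0.90 to 1.41 for MBP, -0.93 to 0.68 for CNP and -1.58 to 1.90 for CLDN11 on the log2 scale. Differences within these intervals are not excluded.

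At 50 days 4 genes were higher in males and 4 lower, where 33.1% of all genes were called, 16% higher and 17.2% lower. The 33 genes were thus called at no higher a rate than genes at large. Their median log2 difference was 0.48, beside -0.032 over all genes. The genes higher in males were CSPG5, SMOC1, ASPA and TF, and those lower were PDGFRA, LHFPL3, MATN4 and CNTN2. In MBP, TSPAN2 and CSPG5 every male library was above every female one, where 8.42% of all genes did so, and in PDGFRA every one was below, where 7.67% did. These comparisons use the same 50-day libraries as the age comparisons, so the values above recur in them.

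**Figure D3:**
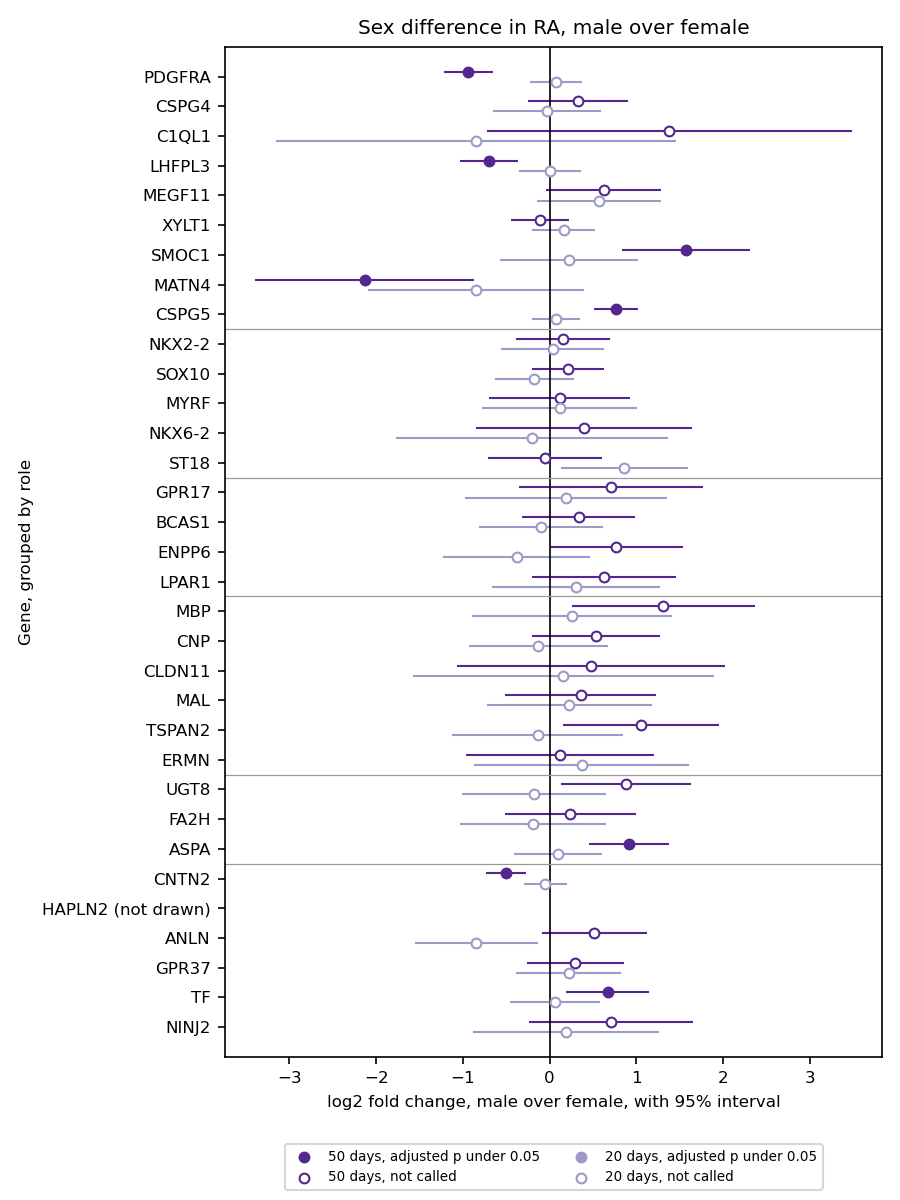
Log2 fold change of males over females (x axis) for each gene (down the page, by role) at 50 and at 20 days, with 95% intervals. Filled points passed an adjusted p of 0.05, as 8 genes did at 50 days and 0 at 20 days. Most myelin genes lie right of 0 at 50 days. Their 50-day intervals lie above 0 for MBP, TSPAN2, UGT8 and ASPA and cross it for CNP, CLDN11, MAL, ERMN and FA2H. HAPLN2 is not drawn because the 20-day males had no count of it.

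PDGFRA had the smallest p of the 33 genes between the sexes at 50 days. It averaged 34.995 ± 8.40 CPM in males and 66.8 ± 9.49 in females, and was 1.91-fold lower in males (log2 -0.93, SE 0.14, adjusted p = 1.5e-05). LHFPL3 averaged 26.1 ± 4.92 CPM in males and 42.5 ± 6.62 in females, and was 1.62-fold lower in males (log2 -0.70, SE 0.16, adjusted p = 0.00192). CNTN2 was 1.42-fold lower in males (log2 -0.51, SE 0.11, adjusted p = 0.00129), and MATN4 4.39-fold lower (log2 -2.13, SE 0.61, adjusted p = 0.00907). In the other direction CSPG5 was 1.70-fold higher in males (log2 0.77, SE 0.12, adjusted p = 5.08e-05), and SMOC1 2.98-fold higher (log2 1.57, SE 0.36, adjusted p = 0.00149). The precursor markers thus did not share a direction between the sexes, with 2 higher, 3 lower and 4 not passing. ASPA was 1.89-fold higher in males (log2 0.92, SE 0.22, adjusted p = 0.00278), and TF 1.59-fold higher (log2 0.67, SE 0.23, adjusted p = 0.028). TF lost its call without male 50-day replicate 3, which had 2841 CPM (adjusted p = 0.241), or without female 50-day replicate 3, 4 or 5 (0.0507 to 0.0526). In shallow libraries alone, 2 males against 6 females, CSPG5, ASPA, CNTN2 and MATN4 no longer passed (adjusted p = 0.0905 to 0.266). The log2 difference of CSPG5 was 0.29 there, beside 0.77 in all libraries, while ASPA had 0.81 beside 0.92, CNTN2 -0.40 beside -0.51 and MATN4 -1.70 beside -2.13. MATN4 also missed the threshold with a term for the depth set (log2 -1.72, adjusted p = 0.0595).

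MBP was 2.49-fold higher in 50-day males than in 50-day females and just missed the threshold (log2 1.31, 95% interval 0.26 to 2.37, adjusted p = 0.0515). The lowest male library had 4835 CPM and the highest female library 4619, so the groups did not overlap. It passed with DESeq2 (adjusted p = 0.0171), with limma voom (0.0174), with RLE scaling (0.0490), with a stricter filter (0.0471) and in a fit of the 50-day libraries alone (0.000334). The difference did not pass with a term for the depth set (0.162) or in shallow libraries alone (0.248). Over the alternatives other than leaving out a library, adjusted p was 0.000334 to 0.248. On leaving out 1 library, MBP passed without female 50-day replicate 7 (0.0358), male 20-day replicate 1 (0.0307) or 2 (0.0463), or female 20-day replicate 1 (0.0417), 3 (0.0249) or 4 (0.0384).

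UGT8 and TSPAN2 behaved alike, with 50-day differences of 0.88 (adjusted p = 0.0664) and 1.06 (adjusted p = 0.0649) on the log2 scale that did not pass. Both passed without female 50-day replicate 7 (0.0298 for UGT8 and 0.0416 for TSPAN2), without female 20-day replicate 3 (0.0316 and 0.0213) and without female 20-day replicate 4 (0.0371 and 0.0498). UGT8 also passed without female 20-day replicate 1 (0.0481), and HAPLN2 without female 50-day replicate 7 (0.0235). Both UGT8 and TSPAN2 passed with limma voom (0.0160 and 0.0294) and in a fit of the 50-day libraries alone (0.00265 and 0.00179). HAPLN2 passed with limma voom (0.00625). Over the 10 alternatives other than leaving out a library, UGT8 passed in 3, TSPAN2 in 2 and HAPLN2 in 2. Adjusted p reached 0.200 for UGT8, 0.299 for TSPAN2 and 0.586 for HAPLN2. None of them passed with DESeq2, with RLE scaling, with a term for the depth set or in shallow libraries alone. The other structural genes overlapped between the sexes, with CNP at 0.54 (adjusted p = 0.264) and CLDN11 at 0.48 (adjusted p = 0.659). None of the 5 transcription factors passed at 50 days, where 33.1% of all genes did. SOX10 differed by 0.22 (95% interval -0.20 to 0.63, adjusted p = 0.44).

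**Figure D4:**
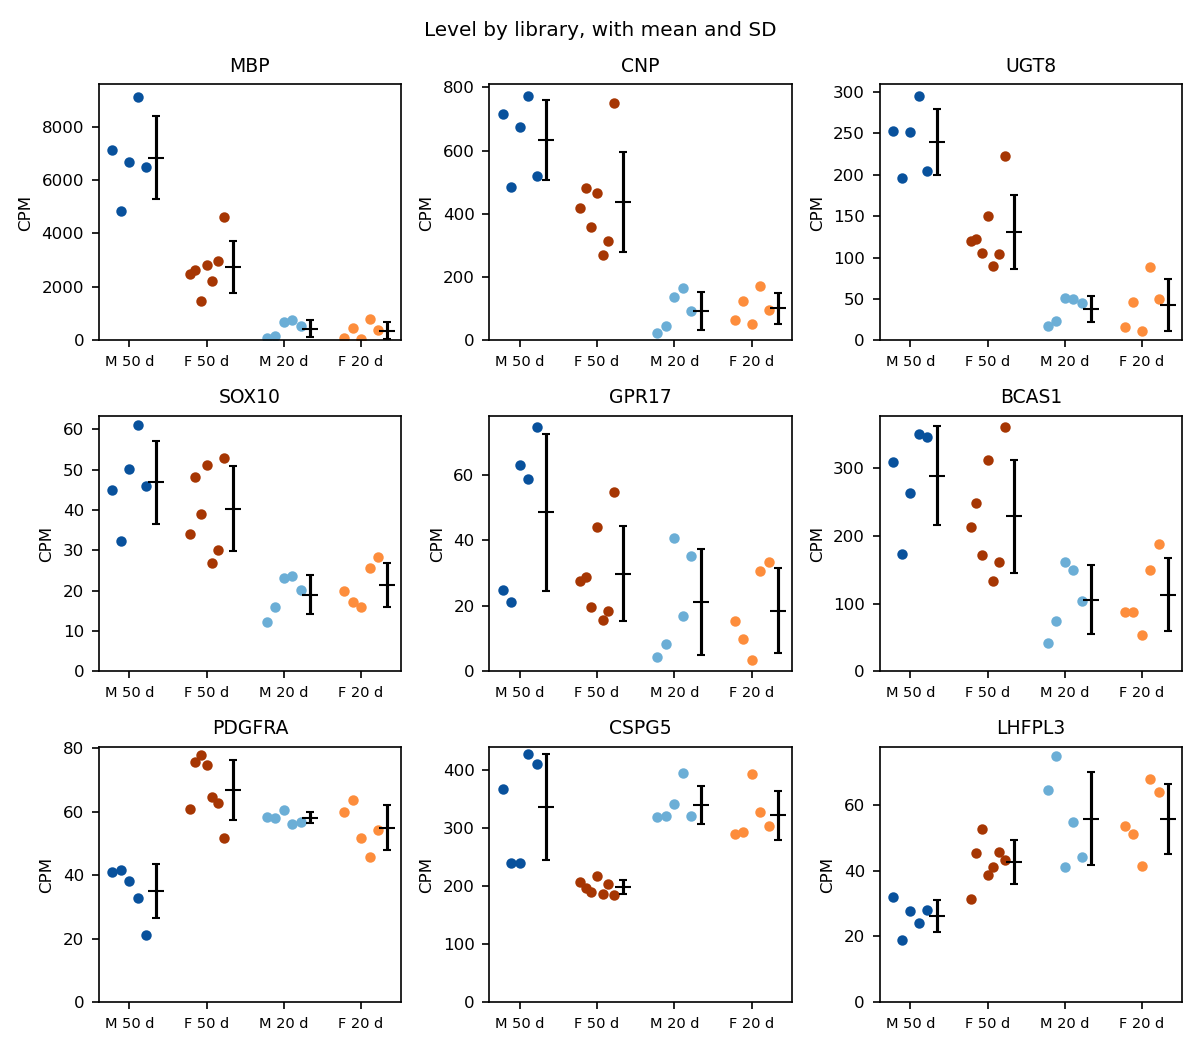
CPM (y axis, from 0) of 9 genes in each library of the 4 groups, with the mean and SD beside the points of each group. MBP, CNP, UGT8, SOX10 and BCAS1 are higher at 50 than at 20 days in both sexes, PDGFRA is lowest in 50-day males, and CSPG5 is lowest in 50-day females.

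The age change itself differed between the sexes in 3 of the 33 genes, where 12.3% of all genes did so, 5.75% higher and 6.57% lower. They were PDGFRA, CSPG5 and HAPLN2. The HAPLN2 difference, fitted as 6.02 (SE 1.73, adjusted p = 0.029), rests on 20-day males without a count and is no bound on its size. It did not pass with limma voom (adjusted p = 0.216) or with a term for the depth set (0.336), nor when male 20-day replicate 1 (0.0504) or female 20-day replicate 3 (0.0544) was left out. ANLN came next, with a male change larger by 1.36 (95% interval 0.42 to 2.30, adjusted p = 0.0509), followed by LHFPL3 at -0.70 (95% interval -1.19 to -0.22, adjusted p = 0.053). With DESeq2 both passed (adjusted p = 0.0189 for ANLN and 0.0350 for LHFPL3), and ANLN passed with RLE scaling (0.0488) and with a stricter filter (0.0464). Of 9 alternatives other than leaving out a library, ANLN passed in 3 and LHFPL3 in 1. Their adjusted p reached 0.511 for ANLN and 0.256 for LHFPL3, and neither passed with a term for the depth set. ANLN also passed without male 50-day replicate 2, female 50-day replicate 2 or 7, male 20-day replicate 1 or female 20-day replicate 2 or 3 (0.0178 to 0.0445). LHFPL3 passed without male or female 50-day replicate 1, male 20-day replicate 3 or 5 or female 20-day replicate 4 (0.0309 to 0.0443). SMOC1 passed without female 50-day replicate 1 (0.0244), and ASPA without female 50-day replicate 4 (0.0354). CNTN2 passed when male 50-day replicate 1 (0.0457) or else female 50-day replicate 2 (0.0333) was left out. SMOC1, ASPA and CNTN2 passed in 0 of the 9 other alternatives. For MBP the difference of the age changes was 1.06 (95% interval -0.51 to 2.63, adjusted p = 0.401). Of the 18 genes that rose in males, 16 had the larger log2 change in males and 2 in females. These 18 genes were picked by their male call, which favours a larger male change, so the split tests no sex difference. The single differences did not pass the test except in HAPLN2.

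At 20 days the levels of myelin genes were more spread between libraries of a group than those of most genes. The median coefficient of variation of the 6 structural genes was 21.6% in 50-day males, 35.6% in 50-day females, 66.8% in 20-day males and 76.4% in 20-day females. Over all genes tested it was 21.1%, 23.03%, 20.8% and 19.3% in the same groups, and over the 9 precursor markers 27.1%, 28.7%, 23.7% and 27.6%. Summed over the 6 structural genes, the level was 5689.8 to 10402 CPM in 50-day males, 2035 to 5751 in 50-day females, 134 to 1046 in 20-day males and 113 to 1201 in 20-day females. The highest 20-day library was thus 7.79 times the lowest in males and 10.6 times in females. The same libraries were low or high for many genes. Over the 24 genes that are no precursor markers, male 20-day replicate 1 was the lowest of its group in 19 and female 20-day replicate 3 in 15. The 19 include HAPLN2, a tie, since no male 20-day library had a count of it. Female 20-day replicate 4 was the highest of its group in 14. At 50 days male replicate 4 was the highest in 14 and replicate 2 the lowest in 17. Female 50-day replicate 7 was the highest in 19, and it also had the lowest neuron sum of its group (8950 CPM), the highest astrocyte sum (8831) and the highest microglia sum (185). Their part in the myelin values of that library was not tested. Without this library 12 rather than 8 genes differed between the sexes at 50 days. It was singled out for its high values, and leaving out a high female library favours calls of higher levels in males.

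**Figure D5:**
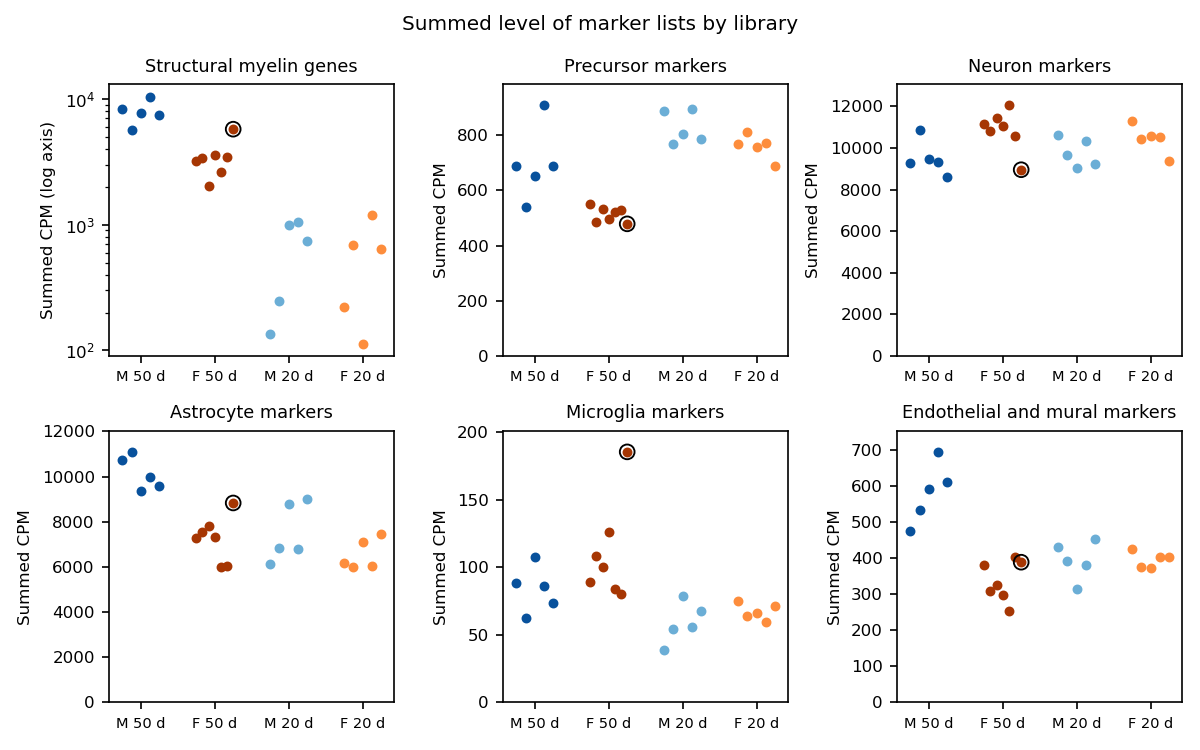
Summed CPM of 6 marker lists in each library (structural myelin genes on a log axis, the other lists on linear axes from 0), by group, with female 50-day replicate 7 circled. The structural sum separates 50-day from 20-day libraries in both sexes, 2035 CPM and above against 1201 and below, and astrocyte and endothelial sums are highest in 50-day males.

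Markers of other cells moved with some of these groups. Of all genes tested, 33.1% were called between the 50-day sexes and 12.3% by the interaction test. With age 12.5% of all genes rose and 14.2% fell in males, and 6.80% rose and 8.05% fell in females. Small counts below, such as 2 of 10 cell cycle genes lower with age in males, are close to these shares. Of the astrocyte markers 11 of 13 were in the table and none was at 0 in a group. Their sum was 9366 to 11093 CPM in 50-day males, 6013 to 8831 in 50-day females, 6140.1 to 9011 in 20-day males and 6010.3 to 7452 in 20-day females. Between the 50-day sexes 6 of the 11 were higher in males, and between the ages of males 7 were higher at 50 days. Of the endothelial and mural markers 10 of 12 were in the table, with sums of 475 to 694, 253 to 403, 313 to 453 and 372 to 423 CPM in the same groups, and 7 were higher and 1 lower in 50-day males than in 50-day females. With age 5 of these 10 rose in males and 2 fell in females, and 5 had a higher age change in males than in females by the interaction test. The interaction includes the 20-day sexes, where sex and depth cannot be told apart. The 8 of 12 microglia markers in the table summed to 62.4 to 107, 80.3 to 185, 38.5 to 78.5 and 59.5 to 74.7 CPM, and 2 rose with age in each sex. Of the neuron markers 2 were higher and 8 lower in 50-day males than in 50-day females. Cell cycle genes, 10 of 11 in the table, summed to 37.7 to 81.4, 38.03 to 86.5, 63.7 to 87.5 and 48.4 to 67.6 CPM, with 2 lower at 50 days in males and 3 in females, and 4 higher and 0 lower in 50-day males than in 50-day females. Among these CDK1 was 2.97-fold higher in 50-day males (log2 1.57, SE 0.40, adjusted p = 0.00419) and CCNA2 3.97-fold higher (log2 1.99, SE 0.60, adjusted p = 0.0133), both chosen after their values were seen. Stress genes, 6 of 7 in the table, had 5 tested, of which 3 were lower in 50-day males than in 50-day females. The part of these shifts in the oligodendrocyte values was not tested.

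Further genes of the lineage were listed separately from the 33. Of 25 other oligodendrocyte and myelin genes tested, 15 rose and 1 fell with age in males, and 14 rose in females, with median log2 changes of 0.84 and 0.76, where 12.5% of all genes rose in males and 6.80% in females. GJB1, the gap junction protein connexin 32, rose 15.9-fold in males (log2 3.99, SE 0.45, adjusted p = 9.58e-07) and 6.86-fold in females (log2 2.78, SE 0.40, adjusted p = 7.35e-05). CDH19, a cadherin, rose 7.81-fold in males (log2 2.97, SE 0.30, adjusted p = 2.66e-07) and 4.99-fold in females (log2 2.32, SE 0.28, adjusted p = 1.14e-05). Between the 50-day sexes 4 of these 25 genes were higher and 3 lower in males, where 33.1% of all genes were called. ELOVL1, which lengthens the fatty acids of sphingolipids, was 1.74-fold higher in 50-day males than in 50-day females (log2 0.80, SE 0.13, adjusted p = 7.86e-05). TPPP was 1.46-fold lower in 50-day males (log2 -0.55, SE 0.15, adjusted p = 0.00791). QKI, an RNA-binding protein that controls myelin transcripts, was 1.48-fold higher in 20-day males than in 20-day females (log2 0.57, SE 0.15, adjusted p = 0.0379). It was the 1 gene of these 25 called between the 20-day sexes, where 2.11% of all genes were called. The 20-day male libraries are all shallow and the female ones all deep, so sex and depth cannot be told apart here.

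Of 15 other precursor-enriched genes, 3 rose and 5 fell with age in males, 3 rose and 1 fell in females, and 5 were higher and 7 lower in 50-day males than in 50-day females, with the same shares of all genes called as given for age in males (26.7%), age in females (14.9%) and the 50-day sexes (33.1%). PCDH15, a protocadherin, fell in males (log2 -0.98, SE 0.13, adjusted p = 1.03e-05) and in females (log2 -0.44, SE 0.12, adjusted p = 0.0178). BCAN, the proteoglycan brevican that astrocytes also make, was 2.56-fold higher in 50-day males (log2 1.36, SE 0.18, adjusted p = 5.67e-06), while the neurexophilin NXPH1 was 1.69-fold lower (log2 -0.75, SE 0.12, adjusted p = 4.29e-05).

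The list of signals and receptors had 27 genes tested. In males 4 rose and 7 fell with age, in females 3 rose and 3 fell, and 5 were higher and 7 lower in 50-day males than in 50-day females, where 26.7%, 14.9% and 33.1% of all genes were called in these comparisons. PDGFA, the ligand of PDGFRA, was lower in 50-day males than in 50-day females, as was its receptor. It averaged 108 ± 18.6 CPM in 50-day males, 233 ± 25.2 in 50-day females, 233 ± 14.8 in 20-day males and 291 ± 15.8 in 20-day females. PDGFA was 2.16-fold lower in 50-day males than in 50-day females (log2 -1.11, SE 0.10, adjusted p = 1.51e-08). Its male age change was lower than the female one by 0.79 on the log2 scale (adjusted p = 0.000792 in the interaction test). That test includes the 20-day sexes, where sex and depth cannot be told apart. The PDGFA value was not examined with a term for the depth set. IGF1R, the receptor for insulin-like growth factor, was 2.23-fold lower in 50-day males (log2 -1.15, SE 0.19, adjusted p = 5.7e-05). GPR37L1, a receptor that astrocytes also carry, was 2.39-fold higher (log2 1.26, SE 0.14, adjusted p = 4.13e-07). LINGO1, an inhibitor of oligodendrocyte differentiation that neurons make, fell with age in males (log2 -0.96, SE 0.12, adjusted p = 3.52e-06).

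On the axonal side, 16 genes of the node and paranode were tested, of which 4 rose and 1 fell with age in each sex, where 26.7% of all genes were called in males and 14.9% in females. Between the 50-day sexes 3 were higher and 3 lower in males, where 33.1% of all genes were called. CNTNAP1, the axonal partner at the paranodal junction, rose 2.07-fold in males (log2 1.05, SE 0.17, adjusted p = 7.92e-05) and 1.60-fold in females (log2 0.68, SE 0.16, adjusted p = 0.00584). EPB41L3, the scaffold beneath that junction, rose 1.32-fold in males (log2 0.40, SE 0.072, adjusted p = 0.000233) and 1.19-fold in females (log2 0.25, SE 0.067, adjusted p = 0.0133). CNTNAP2, of the juxtaparanode, was 1.67-fold higher in 50-day males than in 50-day females (log2 0.74, SE 0.13, adjusted p = 0.000164). SPTBN4, a spectrin of nodes, was 1.64-fold lower (log2 -0.71, SE 0.15, adjusted p = 0.000991).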

How the data were processed

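RA was cut by laser from cresyl violet stained sections, and libraries were made with a SMART-Seq v4 kit, per the labels' protocols. Each library was given the sex and age in its labels. The table the authors deposited holds raw counts, a whole number for each gene and library, without normalisation. The submitters' processing notes name Trimmomatic 0.36 for trimming, FastQC 0.11.9 and the aligner STAR 2.6.1. Which tool counted the reads, on which build and annotation and with which strand setting is not given in the sources used here, so reads of overlapping or antisense genes may be counted together. The labels' protocols name no molecular identifiers, and limits worked out from counts cover counting error only.

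Of 21955 entries, 169 carry no gene ID and took 0.0344% to 0.0739% of a library's counts; they were left out. Symbols and chromosomes came from a RefSeq table for bTaeGut7.mat, possibly another assembly than that of the alignment. It named 16205 genes, with 96.9% of the counts. With edgeR 4.0.16 in R 4.3.3, genes were kept by filterByExpr (minimum count 10), scaled by TMM and fitted as 4 group means over all 22 libraries by the quasi-likelihood method. Adjusted p is Benjamini-Hochberg over the 16004 genes tested. The SE is the absolute log2 fold change divided by the square root of its F statistic. The 95% interval uses that SE. The steps were tested on simulated data that held no effect of the depth set, so that test does not bear on depth.

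The 33 genes, the further gene lists and the comparisons were chosen with earlier results of these data known. Library values are given for a set of 16 lineage genes, of which 12 had an entry, and for the 6 called genes with the smallest p in each comparison. In 50-day females these genes are given by their lowest, median and highest level only. The other genes are given by group. Of each further list, at most the 3 called genes with the smallest p in a comparison are named; some genes are not reported here. Libraries are birds with their own brain ids, except as stated for female 50-day replicates 5 and 6. Alternatives were DESeq2 1.42.0, limma 3.58.1 voom with quality weights, RLE scaling, no filter, a stricter filter (1 CPM in 5 libraries), a replicate block, the 2 libraries with a shared number summed, only the groups compared, a term for the depth set, shallow libraries (under 40 M counts) alone, and leaving out each library.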

Additional observations from a re-analysis of the deposited data

Results flagged for a closer look

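In 10 of 132 combinations of a gene and a group, 1 library stood apart from the rest of its group by Dixon's test at the 95% level. Chance alone flags about 1 group in 20. Of these, 4 involve the same library, female 50-day replicate 7, which was the highest of its group for NKX6-2 (35.9 CPM, next 16.6), ST18 (20.3, next 12.8), FA2H (22.8, next 15.05) and TF (1362, next 994). Male 50-day replicate 3 was the highest for TF (2841 CPM, next 1458), and male 50-day replicate 2 the lowest for FA2H (11.99 CPM, next 17.5). Female 50-day replicate 1 was the highest for SMOC1 (103 CPM, next 52.2). Of the 20-day libraries, male replicate 2 was the highest for C1QL1 (1.12 CPM, next 0.361), female replicate 5 the highest for NKX2-2 (7.05, next 3.40), and female replicate 3 the lowest for MYRF (1.09, next 5.33).

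In 3 genes the age change differed between the sexes by the interaction test of edgeR. The male change minus the female one was -1.01 on the log2 scale for PDGFRA (adjusted p = 0.00185), 0.69 for CSPG5 (adjusted p = 0.0164) and 6.02 for HAPLN2 (adjusted p = 0.029). The HAPLN2 value rests on 20-day males without a count.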

How the results depend on the processing

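The counts of changed genes depended on the setting between the 50-day sexes, in the female age comparison and in the interaction. Between the 50-day sexes 8 genes were called; limma voom called 17, a fit of only the groups compared 14 and shallow libraries alone 4. The 17 female age calls became 9 with a term for the depth set. Of the 8 lost genes 7 had nearly the same fold change and CSPG5 a smaller one. That term rests on the 50-day libraries alone. It separates depth from age in females only if depth acts the same at both ages, which could not be checked. The 3 interaction calls became 5 with DESeq2 and 0 with a term for the depth set, where CSPG5 reversed to -0.036 (adjusted p = 0.97). The male age calls, 23, were 18 to 24 over all alternatives, and the sex comparison at 20 days gave 0 in every one. Shallow libraries alone gave values in the 50-day sex and male age comparisons only, since the 20-day females are all deep.

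Leaving out each of the 22 libraries gave 0 calls between the 20-day sexes in every fit, 7 to 12 between the 50-day sexes, 22 to 24 for age in males, 15 to 17 for age in females and 3 to 5 for the interaction. Of 3630 gene values in these fits, 26 lost a call, 33 gained one and 0 reversed. Of 1543 values under the other alternatives, 29 lost a call, 33 gained one and 1 reversed. Summing female 50-day replicates 5 and 6 and dropping the filter changed no call.

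With the replicate number as a block the calls were 0 between the 20-day sexes, 11 between the 50-day sexes, 22 for age in males, 16 for age in females and 3 for the interaction. Between the 50-day sexes the block added MBP (log2 1.54, adjusted p = 0.0462), UGT8 (0.0415) and HAPLN2 (0.0343), and the age calls of MATN4 in males (0.106) and BCAS1 in females (0.0612) were lost. The numbers were not taken to pair birds: of 30 same-numbered pairs of libraries, 3 had deviations correlated above 0.1, over a range of -0.086 to 0.23.

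The 20-day males, whose libraries are all shallow, had no count of HAPLN2. MAL and C1QL1 were near or under 1 CPM on average in every group. The part of depth in these low values was not tested.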
